A study of Arabidopsis thaliana with 4 samples.

Results

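The genes described here encode the main red and blue light receptors of Arabidopsis thaliana, the phytochromes PHYA (AT1G09570), PHYB (AT2G18790), PHYC (AT5G35840), PHYD (AT4G16250) and PHYE (AT4G18130) and the cryptochromes CRY1 (AT4G08920) and CRY2 (AT1G04400). They were chosen by their locus identifiers, which makes 7 of the 27444 protein-coding genes on the 5 nuclear chromosomes. Every peak was taken that overlapped the span of one of these genes with 3000 bp added on both sides. The peaks came from chromatin immunoprecipitation followed by sequencing (ChIP-seq) with an antibody against MYC, in seedlings that overexpress RVE5 with a MYC tag. RVE5 is a MYB-like factor of the REVEILLE family, related to the morning clock proteins CCA1 and LHY. All samples were of that genotype, 14 days old, raised at 22 °C in cycles of 16 h of light and 8 h of dark, exposed to 29 °C for 12 h and collected at zeitgeber time 12 h. There were 3 ChIP replicates with 1 peak list each, and 1 input DNA library, of which no list was used here. The labels name neither the promoter that drives the tagged gene nor whether the replicates were separate cultures or transgenic lines, so the spread between them may be technical. No second temperature and no seedlings without the tag were in the design, so a change of binding with warmth was not measured, and signal of the antibody that does not depend on RVE5-MYC cannot be told apart from binding of RVE5-MYC.

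Phytochromes carry a bilin chromophore and switch between an inactive form that absorbs red light and an active form that absorbs far-red light. The active form of phyB moves into the nucleus, where it inhibits and helps to degrade the phytochrome-interacting factors (PIFs), bHLH proteins that promote hypocotyl growth. It reverts to the inactive form faster at higher temperature, and phyB is therefore known as a sensor of both light and warmth. Cryptochromes bind a flavin, absorb blue light, and inhibit the COP1/SPA ubiquitin ligase, which in darkness removes factors such as HY5. Both families set the pace and phase of the circadian clock by light, and transcripts of several of their genes are known to cycle under clock control.

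Among the photoreceptor genes PHYB had peaks in 2 of the 3 replicates, PHYE and CRY2 had a peak in 1 replicate each, and PHYA, PHYC, PHYD and CRY1 had none. No photoreceptor gene had a peak in all 3 replicates. The 4 peaks lay close to an end of their gene, with folds over background of 2.46 to 3.11. In its own list the PHYE peak had a higher fold than 43.4% of the peaks, and that of CRY2 than 77.4%. The PHYB peaks had a higher fold than 72.8% in replicate 1 and 86.1% in replicate 3. By the same rule, 3503 of 27444 protein-coding genes had a peak in at least 1 replicate (12.8%), 1275 had one in at least 2 replicates (4.65%), and 496 had one in all 3 (1.81%). The photoreceptor genes stood at 3 of 7, 1 of 7 and 0 of 7. With so few genes these counts are a description and were not tested. The gene spans of the photoreceptor genes were 3185 to 5660 bp long, with a median of 4210 bp against 2078 bp for all protein-coding genes. More sequence was thus searched for each of them than for the median gene. The 3000 bp flanks were the same for all genes, so the searched windows differed less in proportion than the spans. Whether this affected the counts was not tested. In single lists, replicate 1 had peaks at 2 of the 7 genes, PHYB and CRY2, where 5.59% of all protein-coding genes had one. Replicate 2 had a peak at PHYE (6.61% of all genes), and replicate 3 had one at PHYB (7.02% of all genes).

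**Figure D1:**
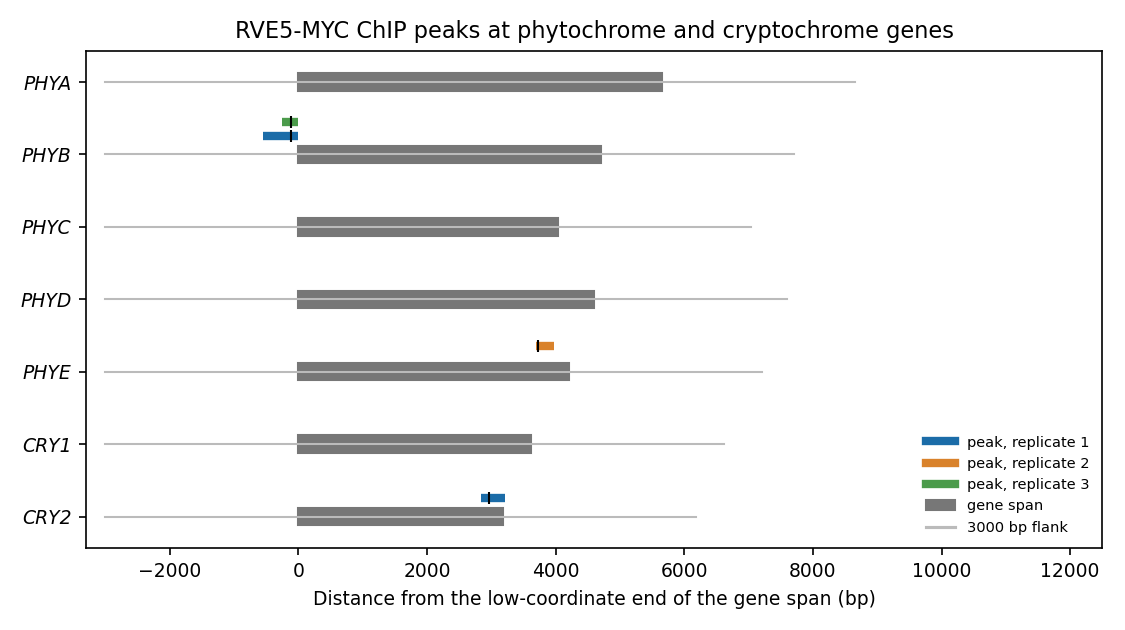
Peaks of the 3 ChIP replicates at the photoreceptor genes, with distance from the low-coordinate end of the gene span in bp on the horizontal axis and 1 gene a line. Grey boxes are gene spans, thin lines the 3000 bp flanks, coloured bars the peaks of each replicate and black ticks the summits. Peaks of replicates 1 and 3 lie side by side at PHYB, while PHYE and CRY2 have 1 peak each near the high-coordinate end.

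PHYB, the main red light receptor of light-grown seedlings, was the only one of the 7 genes with a peak in more than 1 list. On chromosome 2 of TAIR10 the peak of replicate 1 ran from 8139212 to 8139753 with its summit at 8139638, and the peak of replicate 3 ran from 8139506 to 8139758 with its summit at 8139644. The summits were 6 bp apart. They lay 118 and 112 bp outside the gene, beyond its low-coordinate end. The gene table used here gives no strand, so the text names gene ends by coordinate and does not call either of them the start.

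The peak in replicate 1 was 542 bp wide, and that in replicate 3 was 253 bp wide. The wider peak ended 3 bp before the gene span, and the narrower one reached 3 bp into it. Both therefore lay almost wholly beside the gene and not over its body. The neighbouring gene AT2G18780 was 1496 and 1502 bp from the summits, so PHYB was the nearest protein-coding gene to both.

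The pileup, which is the height of the stacked reads at the summit, was 38 reads at PHYB in replicate 1 and 45 reads in replicate 3. If each read counts as independent, their exact Poisson 95% intervals are 26.9 to 52.2 and 32.8 to 60.2 reads, so they overlap widely. These intervals cover counting error only, and the total reads of the libraries are unknown here. The fold over background, as the authors' lists give it, was 2.93 in replicate 1 and 3.11 in replicate 3, with a mean of 3.02 ± 0.130 (SD, n = 2). The lists do not say how that background was set. By p-value the PHYB peak ranked 229 of 676 in replicate 1 and 152 of 864 in replicate 3. It stood in the upper part of both lists, ahead of 66.1% and 82.4% of the peaks, and far from their top.

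In replicate 2 the nearest summit to PHYB was 71.2 kb away. Of the 827 peaks of replicate 2, 574 (69.4%) had a higher p-value than PHYB had in replicate 1. A pileup of at most 38 reads was seen at 391 (47.3%). The library totals are unknown, so values of the 2 lists have no common scale. Why PHYB had no peak in replicate 2 was not tested. The read coverage at PHYB in replicate 2 was not analysed here, since the lists hold called peaks only. How near the locus came to the threshold in that library is therefore unknown.

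Peaks that overlapped between or within the lists were joined into regions. The region at PHYB was 1 of 288 found in exactly 2 replicates, and its mean fold ranked 31 among them, above 89.2% of the others. The median of the mean fold was 2.56 over these 288 regions and 3.00 over the 199 regions found in all 3 replicates, beside 3.02 at PHYB. The mean at PHYB covers only the 2 lists in which it had a peak and leaves out replicate 2. It is therefore not on the same basis as the means over 3 lists. The distance between its summits, 6 bp, compares with a median of 64.5 bp over the 288 regions. Only 2.78% of them had summits closer together.

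CRY2, the light-labile cryptochrome that acts in photoperiodic flowering and under dim blue light, had 1 peak, in replicate 1, on chromosome 1 from 1188357 to 1188732. Its summit at 1188475 lay inside the gene, 221 bp from the high-coordinate end, and 340 of the 376 bp of the peak overlapped the gene. The pileup was 44 reads (95% interval 32.0 to 59.1), the fold 3.00, and the rank by p-value 172 of 676. In that list CRY2 thus ranked ahead of PHYB. The intervals of their pileups, 44 and 38 reads, overlapped, and the difference was not tested. In replicates 2 and 3 the nearest summits to CRY2 were 47.7 and 47.4 kb away. The gene next to the peak, c-NAD-MDH1, which encodes a cytosolic malate dehydrogenase, was 520 bp from the summit.

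PHYE, a light-stable phytochrome that acts partly redundantly with phyB, had 1 peak, in replicate 2, on chromosome 4 from 10045832 to 10046110. The whole peak lay inside the gene, with the summit at 10045861, 485 bp from the high-coordinate end. It was the weakest of the 4 peaks, with a pileup of 31 reads (95% interval 21.1 to 44.0), a fold of 2.46 and rank 587 of 827. Its pileup interval overlapped those of PHYB and CRY2, but these came from other lists, with no common scale, so the overlap does not show likeness. The summit was 426 bp from the neighbouring gene SSP4b, so PHYE was the nearest gene only by containing it. The nearest summits in replicates 1 and 3 were 38.4 and 29.6 kb from PHYE.

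PHYA, the light-labile receptor of far-red light, had no summit within 22.6 kb of its span in any list, and in replicates 1 and 2 the nearest were 101 and 100.4 kb away. The summit at 22.6 kb, in replicate 3, is the same peak that falls in the window of PIF3. PHYC, which acts together with phyB, had its nearest summits 58.0, 187 and 187 kb away in replicates 1, 2 and 3. PHYD, the closest relative of PHYB, had them 127, 14.6 and 51.7 kb away. CRY1, the main cryptochrome of seedlings in bright blue light, had them 471, 49.4 and 267 kb away. Over all protein-coding genes the median distance to the nearest summit was 56.9, 47.3 and 42.9 kb in the 3 lists. The share of genes with a nearer summit ran from 21.2% for PHYD in replicate 2 to 96.3% for CRY1 in replicate 1. Apart from PHYD in replicate 2 and PHYA in replicate 3 (31.4%), these 4 genes lay farther from a summit than the median gene. They are the genes without a peak in the window, so short distances were left out beforehand. No photoreceptor gene had its nearest summit between 0.118 and 14.6 kb from its span, so flanks of 1000 to 5000 bp counted the same peaks as the 3000 bp used here. With no flank at all, PHYB had a peak in 1 replicate instead of 2.

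**Figure D2:**
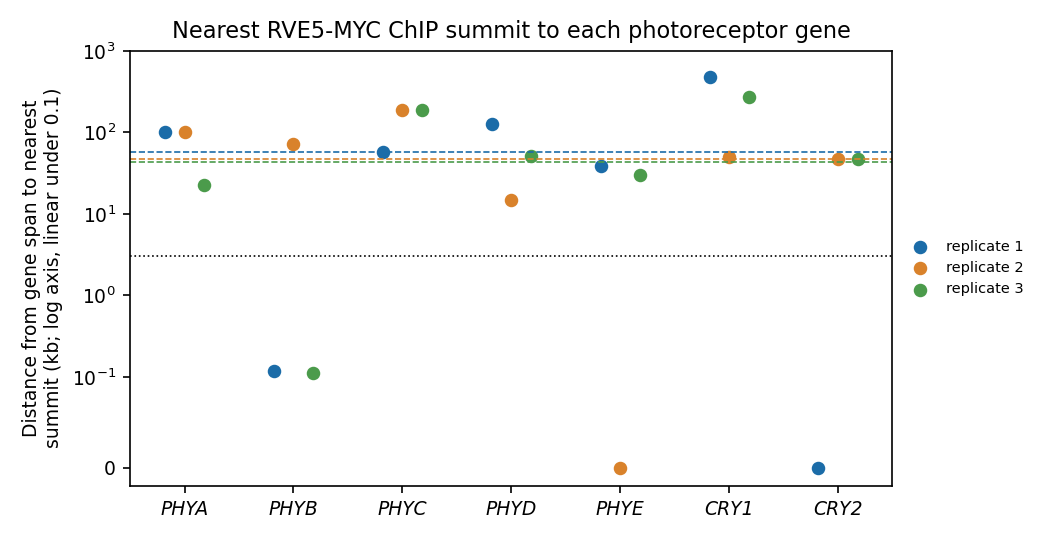
Distance in kb from each photoreceptor gene's span to the nearest summit in each of the 3 lists, on a log axis that is linear under 0.1 kb; 0 means a summit inside the gene. Dashed lines are the medians of all protein-coding genes in each list, and the dotted line marks 3000 bp. The PHYB points of replicates 1 and 3 lie near 0.1 kb, PHYE has 1 point at 0 from replicate 2 and CRY2 has 1 at 0 from replicate 1, and all other points lie at 14.6 kb or farther.

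Set side by side, PHYB differed from PHYE and CRY2 in the number of lists with a peak and in having its summits outside the gene. The PHYB summits lay beyond the low-coordinate end, and those of PHYE and CRY2 inside the gene near the high-coordinate end. Strand was not given, so this does not show whether they lie at like or opposite ends of the genes as transcribed. The intervals of the pileups overlapped, but overlap does not show that pileups are alike, and the lists have no common scale. The pileup divided by the fold, a rough figure for the background behind the fold, was 13.0 and 14.5 reads at PHYB, 12.6 at PHYE and 14.7 at CRY2. With 2, 1 and 1 peaks over 3 lists these differences are a description, and no test of them was made. All 4 summits lay within 500 bp of an end of their gene. Of all 2367 peaks, 66.5% had the summit within 500 bp of an end of a protein-coding gene, so this place was common in these lists.

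**Figure D3:**
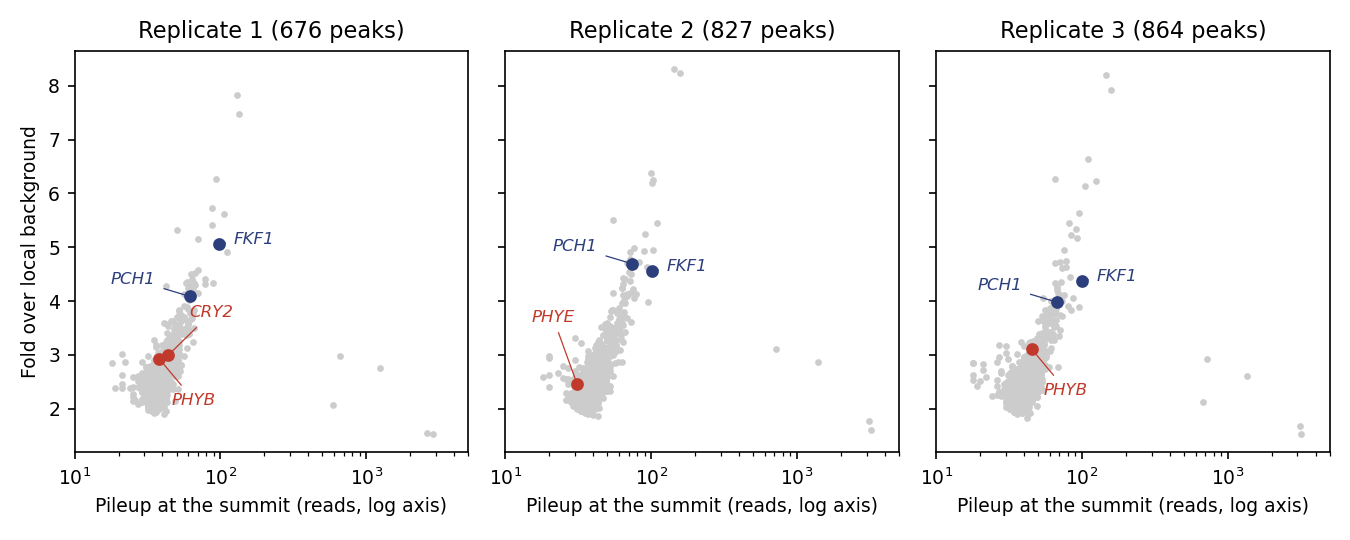
Fold over background against pileup at the summit (reads, log axis) for every peak of the 3 lists, in grey. The axis calls the background local, which the lists do not state. Red points are photoreceptor genes and blue points are FKF1 and PCH1. PHYB, with 38 and 45 reads, PHYE with 31 and CRY2 with 44 lie within the mass of the peaks, below FKF1 at 98 to 101 reads and PCH1 at 62 to 74 reads.

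The other genes of the pathway were taken from a list of 38 light signalling genes, chosen with earlier results of these data known. Of these, 11 had a peak within 3000 bp in at least 1 replicate, 5 had one in at least 2 replicates, and 3 had one in all 3. The shares of all protein-coding genes given above were 12.8%, 4.65% and 1.81%. Because of how the list was chosen, these counts are a description and were not tested. By role, 2 of 7 further photoreceptors, 2 of 12 genes for the phytochrome chromophore, nuclear import and phytochrome partners, 4 of 7 PIF genes, 0 of 3 cryptochrome partners and 3 of 9 genes of the COP1/SPA branch had a peak in at least 1 replicate. Among those without a peak in any list were COP1, HY5, BIC1, BIC2, PIF1 and PIF7, named after their values were seen.

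Among the further photoreceptors FKF1, a blue light receptor of the LOV and F-box type that acts in photoperiodic flowering, had a peak in each list. Its pileup was 98, 101 and 100 reads in replicates 1, 2 and 3, and its fold 5.06, 4.56 and 4.38. In replicates 1 and 3 the 95% intervals of its pileup, 79.6 to 119 and 81.4 to 122 reads, lay above those of PHYB. PHOT1, the phototropin of phototropic bending, had a peak in replicate 3 alone, with its summit inside the gene, 37 reads, a fold of 2.61 and rank 411 of 864. It was named after its values were seen. CRY3, PHOT2, UVR8, ZTL and LKP2, named here to complete this group, had none.

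PCH1 (AT2G16365), whose protein binds phyB, holds it in its active form and limits growth of the hypocotyl, had the highest fold of the 12 genes in its group and was the only one with a peak in all 3 lists. The gene table gives this locus no symbol, and the name is that of the list. Its peaks ran on chromosome 2 from 7073886 to 7074237, from 7073906 to 7074257 and from 7073867 to 7074275 in replicates 1, 2 and 3. The summits were 63, 73 and 63 bp outside the gene, at the low-coordinate end. The pileup was 62, 74 and 67 reads and the fold 4.08, 4.69 and 3.98, with a mean of 4.25 ± 0.384 (SD, n = 3). The region ranked 19 by mean fold among the 199 found in all 3 replicates. All 3 peaks were higher than those of PHYB. The 95% intervals of the pileup were 47.5 to 79.5 against 26.9 to 52.2 reads in replicate 1 and 51.9 to 85.1 against 32.8 to 60.2 in replicate 3. They overlapped in part, which does not show that the pileups are alike, and the difference was not tested. Another gene, AT2G16340, was 562 to 572 bp from these summits, so the peak stands between neighbours. TZP, a nuclear partner of phyB, had a peak in replicate 2 alone, 144 bp outside the gene, with 50 reads, a fold of 3.59 and rank 75 of 827. No other peak at the 38 genes that was found in a single list had a better rank.

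Of the phytochrome-interacting factors, PIF6, listed in the gene table as PIL2, had a peak in all 3 replicates. Its pileup was 50, 43 and 46 reads in replicates 1, 2 and 3, and its fold 3.49, 2.35 and 2.91, a mean of 2.92 ± 0.571 (SD, n = 3). The summits lay 376, 466 and 364 bp outside the high-coordinate end. They were 102 bp apart at most, against 10 bp at PCH1 and 21 bp at FKF1. PIF4, the PIF best known for growth in warmth, had peaks of 47 and 53 reads in replicates 2 and 3 at 467 and 458 bp outside its high-coordinate end, with folds of 3.37 and 3.65. In replicate 2 it had a second peak inside the gene with 45 reads and a fold of 2.65. PIF4 and PHYB thus each lacked a peak in 1 list, replicate 1 for PIF4 and replicate 2 for PHYB. PIF5 had a peak inside the gene in replicate 2 (40 reads, fold 2.49), with rank 403 of 827. PIF3, named after its values were seen, had one in replicate 3 that lay 2835 bp from the gene and nearer to another gene, with 37 reads and a fold of 2.04.

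In the COP1/SPA branch SPA3, a subunit of the COP1 complex, had peaks of 36 and 47 reads in replicates 1 and 2, with folds of 2.33 and 2.84. They lay 2945 and 2988 bp from the gene, just inside the window, and their nearest gene was AT3G15350. SPA1, another subunit, had a peak in replicate 2 with 44 reads and a fold of 2.91, its summit 108 bp outside the gene. HFR1, a bHLH protein of light signalling chosen for mention with its values known, had a peak in replicate 3 with 39 reads and a fold of 2.49, its summit 999 bp outside the gene and 939 bp from a neighbouring gene.

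**Figure D4:**
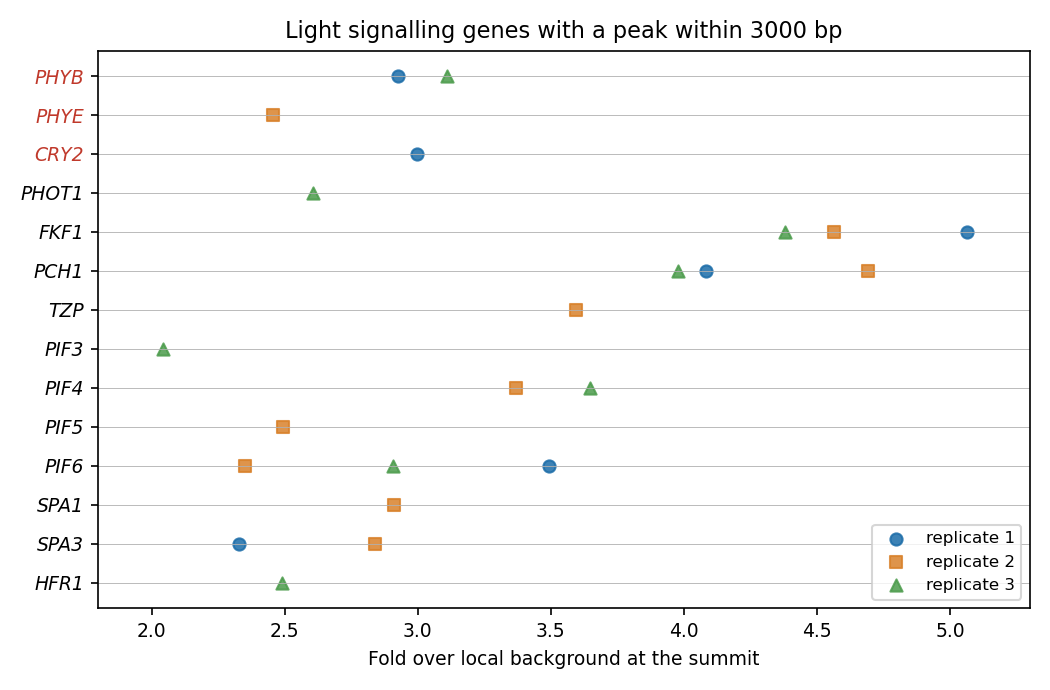
Fold over background at the summit for photoreceptor genes (red names) and other light signalling genes (black names) that had a peak within 3000 bp. Each replicate with a peak has 1 marker, and where a replicate had 2 peaks at a gene the higher fold is shown. The axis calls the background local, which the lists do not state. FKF1 and PCH1 have 3 markers at folds of 3.98 to 5.06, PIF6 has 3 from 2.35 to 3.49, and PHYB has 2 at 2.93 and 3.11.

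The genes most like PHYB were those with a summit within 3000 bp of their span in replicates 1 and 3 only, as 216 protein-coding genes had, ordered by the difference of their mean fold from that of PHYB. AT2G18770 and AT2G18780 had a difference of 0 because the PHYB peaks themselves lie in their windows. Next came CYP71B29, CYP71B7 and GLE1, neighbours on chromosome 1 that share 1 pair of peaks, with folds of 2.81 in replicate 1 and 3.25 in replicate 3 and a mean of 3.03. The median of the mean fold over the 216 genes was 2.53, below the 3.02 of PHYB. Likeness over 3 lists is a coarse measure, and a gene in this group shares with PHYB the lists and their thresholds.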

How the data were processed

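The photoreceptor genes and the gene lists were chosen with earlier results of these data known. Per the labels, an anti-MYC antibody was used for the precipitation. The submitters' processing notes name TAIR10 and CASAVA 1.4. Which aligner and peak caller were run, at what threshold and with what use of the input, is not stated in these sources. The signal in the deposited lists is the pileup at the summit. Per the file headers, each peak also has a fold over background and a p-value and q-value as −log10. These values served to describe, rank and filter peaks within a list. Folds were also averaged over replicates, and regions and genes were ordered by that mean. The p-value and pileup of PHYB in replicate 1 were also set against the list of replicate 2. Pileups of photoreceptor genes and their intervals were set side by side across lists. None of these uses adjusts for library depth, which is unknown here. The lists held 676, 827 and 864 peaks with a median pileup of 38, 39 and 40 reads.

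Gene spans came from a RefSeq table of assembly TAIR10.1, whose coordinates are not printed. All 45 listed loci matched by locus identifier, 11 of them under another symbol or none. Overlap was computed with pandas 2.3.3 and Poisson intervals with scipy 1.17.1. The overlap counting was tested on simulated peaks. Regions were peaks of any list that shared at least 1 bp. Genes were named by rule: all photoreceptor genes, listed genes with peaks in at least 2 replicates, the 3 with 1 that had the best rank number by p-value in their own list, and the 3 most like PHYB (5 here, because of a tie). Others are marked in the text, apart from genes named only as neighbours of a peak. The planned motif search was not run and no sequence is printed, because no genome sequence was used here. Alternatives changed the flank, the peak filter, the assignment of peaks and the replicates used.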

Additional observations from a re-analysis of the deposited data

How the results depend on the processing

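Flanks of 1000, 2000 and 5000 bp, a q-value of at most 0.01, and counting a peak by its summit or for its nearest gene left each photoreceptor gene with the number of replicates it had. With no flank PHYB kept 1 replicate, because its peak in replicate 1 ends 3 bp short of the gene, so 0 photoreceptor genes had 2 (1.18% of all protein-coding genes). Leaving out 1 replicate gave 0 to 1 photoreceptor genes with a peak in at least 2 lists, and 0 to 1 in all lists left: PHYB counts without replicate 2 (2.64% of all genes) and drops out without replicate 1 or 3 (2.87% and 2.75%). With values in 2 replicates, its mean fold and pileup cannot move by more than 1 SD when 1 is left out, so they show nothing about stability. Using only the 50% of peaks with the lower p-values in each list removed the PHYE peak. Of the 38 other light signalling genes, 7 with no flank had a peak in at least 1 replicate and 2 in at least 2, where the shares of all genes were 3.77% and 1.18%. Counting a peak only for its nearest gene left 8 and 4 of the 38, beside 5.61% and 1.79% of all genes. Without 1 replicate 3 to 4 had one in at least 2, the fewest without replicate 2, beside the same 2.64% to 2.87% of all genes. No paired analysis was possible because the input library has no list here to set against the ChIP replicates. A pileup of 31 to 45 reads and unknown library totals limit what an absent peak can show.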

Other observations

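A further 13 genes that act beside or downstream of the photoreceptors were looked up after the main results had been seen. Of these, 4 had a peak within 3000 bp in at least 1 replicate and 1 in at least 2, beside 12.8% and 4.65% of all protein-coding genes. RUP1, a repressor of the UV-B receptor UVR8, had peaks in replicates 1 and 3 with folds of 2.31 and 1.99, but their summits were 1192 bp apart and the peaks formed separate regions. ATHB2, a homeodomain gene induced by shade, had 1 peak in replicate 3 with a fold of 2.84, its summit 1588 bp outside the gene. In replicate 1 a peak with a fold of 2.05 fell in the window of RPT2, a phototropin signalling gene, but it lay 2854 bp from RPT2 and its summit was 33 bp from AT2G30530. ELIP1, a light-stress gene, had a peak with a fold of 2.03 in replicate 1, its summit 654 bp outside the gene. No peak was found at RUP2, NPH3, PKS2, PKS3, PKS4, PIL1, PAR1, CHS or ELIP2.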
